A study of Mus musculus with 4 samples.

Results

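PD-1 positive CD8 T cells are CD8 T lymphocytes whose transcripts include the inhibitory receptor gene Pdcd1, and this report describes them in CD45-positive cells from mouse liver. They were selected on raw UMI (unique molecular identifier) counts of each cell, chosen by at least 1 UMI over Cd3d, Cd3e and Cd3g, at least 2 UMIs over Cd8a and Cd8b1, at least 1 UMI of Pdcd1 and no UMI of Cd4, Csf1r or C1qa, C1qb and C1qc. Cells also had to hold 600 to 6000 detected genes and at most 5% mitochondrial UMIs. The rule takes 4273 of 36286 kept cells, namely 364 in the young WT library, 1281 in the treated WT library, 1447 in the miR-146a-/- library and 1181 in the DKO library.

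All 4 libraries come from female C57BL/6 mice and were made with 10x 5-prime v2 chemistry from sorted liver cells. The young WT mice were untreated and 8 weeks old. The other groups received diethylnitrosamine at day 14 and then a choline-deficient diet with 60% fat (DEN-CDHFD), and were taken at 36 weeks as wild type, as miR-146a-/- and as miR-146a-/- Ccl5-/- (DKO). The number of mice pooled in each library is not stated, and with 1 library per group no difference between groups could be checked against replicates. PD-1 is a receptor that dampens T-cell receptor signalling after antigen contact, and it stays on CD8 T cells that meet antigen for a long time. Such cells often carry further inhibitory receptors and a characteristic set of transcription factors, of which TOX is the best studied. miR-146a is a microRNA that restrains signalling from innate receptors to NF-kB, and CCL5 is a chemokine made in large amounts by antigen-experienced CD8 T cells.

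The rule is strict about macrophage transcripts because liver macrophages engulf other cells and stick to them. Leaving out cells with a UMI of Csf1r, C1qa, C1qb or C1qc removed 49 of 413 cells in young WT, 643 of 1924 in treated WT, 387 of 1834 in miR-146a-/- and 492 of 1673 in DKO. Barcodes shared between libraries were counted because they mark possible carry-over during sequencing. Over all deposited cells 736 barcodes occur in 2 libraries and 9 in 3, and 9 barcodes belong to PD-1 positive CD8 T cells in 2 libraries. Libraries can also share barcodes by chance. The number expected by chance was not computed, so carry-over is not read from these counts. A PD-1 positive cell has a median of 7065 UMIs in young WT, 7233 in treated WT, 6845 in miR-146a-/- and 5941 in DKO, so a transcript is somewhat easier to detect in the first libraries than in the last. For that reason shares of cells are also given after every cell was thinned at random to 2000 UMIs.

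Ccl5, the gene removed in DKO mice, comes first. Its summed level in PD-1 positive cells is 16231 CPM (UMIs scaled by the UMI total of the summed cells) in young WT, 37999 in treated WT, 35277 in miR-146a-/- and 222.1 in DKO. DKO over miR-146a-/- is a log2 ratio of -7.31 (95% interval from UMI counts -7.38 to -7.25). At least 1 Ccl5 UMI is found in 57.2% of DKO PD-1 positive cells as sequenced and in 25.7% after thinning, with 4 cells too shallow to thin. Ambient transcripts reach every droplet, and B cells, which make little of this chemokine, give a background for such shares. Among DKO B cells, with a median of 6939 UMIs against 5941 in PD-1 positive cells, 11.5% hold a Ccl5 UMI as sequenced and 3.41% after thinning. Of the 1960 Ccl5 UMIs in DKO PD-1 positive cells, 483 (24.6%) are in 1 cell. The miR-146a gene has no entry of its own in the count matrices, so its absence was not examined at the RNA level.

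The rule rests on few molecules, so its threshold genes were looked at more closely, without a test. Exactly 1 Pdcd1 UMI was counted in 211 of the young WT cells (58.0%), 197 of the treated WT cells (15.4%), 327 of the miR-146a-/- cells (22.6%) and 326 of the DKO cells (27.6%). At least 3 Pdcd1 UMIs are present in 21.2% of the young WT cells, 70.5% of the treated WT cells, 61.6% of the miR-146a-/- cells and 52.8% of the DKO cells. Cells with exactly 1 Pdcd1 UMI can be set beside all CD8 T cells with none, which include the naive-like ones (730, 398, 354 and 270 cells). In treated WT the level of Lag3 is 246.3 CPM at 1 Pdcd1 UMI and 47.3 CPM at 0, and in young WT it is 73.8 CPM and 24.6 CPM. DKO has 112.3 CPM against 51.4 CPM, and miR-146a-/- has 258.4 CPM against 55.8 CPM. The contrast is smaller against PD-1 negative cells without the naive-like ones, where Lag3 is at 51.7, 99.8, 104.4 and 89.3 CPM. The CD8 threshold matters less by number, since only 15, 20, 21 and 13 PD-1 positive cells of the 4 libraries sit at exactly 2 Cd8a plus Cd8b1 UMIs.

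Among CD8 T cells passing the same rule without the Pdcd1 condition, PD-1 positive cells are 22.8% in young WT (364 of 1596, 95% interval 20.8 to 25.0), 62.4% in treated WT (1281 of 2053, 60.3 to 64.5), 64.7% in miR-146a-/- (1447 of 2238, 62.6 to 66.6) and 61.4% in DKO (1181 of 1925, 59.1 to 63.5). CD8 T cells as a whole have a median of 8168 UMIs in young WT, 7660 in treated WT, 7062 in miR-146a-/- and 6224 in DKO. Thinned to 2000 UMIs before the rule was applied, the shares are 12.3% (154 of 1256), 46.7% (897 of 1920), 43.0% (891 of 2070) and 39.2% (715 of 1823), with 667, 540, 358 and 406 kept cells too shallow to thin. Thinning also makes the absence of Cd4, Csf1r, C1qa, C1qb and C1qc easier to meet. Cells left out at full depth can thus enter, and how many did so was not counted. Shares gated after thinning therefore differ from the others by more than depth. Most B cells lack Pdcd1, so they give a background for it. A Pdcd1 UMI occurs in 0.916%, 1.07%, 0.671% and 1.77% of B cells as sequenced, at median depths of 5700, 7048, 7190 and 6939 UMIs, and in 0.102%, 0.522%, 0.525% and 0.366% of them after thinning.

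Differences between libraries follow from these shares. Treated WT lies 39.6 percentage points above young WT as sequenced (36.6 to 42.5) and 34.5 points above it after thinning (31.5 to 37.3). miR-146a-/- lies 2.26 points above treated WT as sequenced (-0.622 to 5.14), whereas the thinned difference is -3.68 points (-6.76 to -0.587), and with at least 2 Pdcd1 UMIs asked for at full depth it is -2.76 points. DKO differs from miR-146a-/- by -3.31 points as sequenced and by -3.82 points after thinning (-6.91 to -0.724), and thinned to 1000 UMIs by -2.73 points with an interval that holds 0 (-6.17 to 0.720). Shares of all kept cells also depend on how many other leukocytes were captured. PD-1 positive CD8 T cells make up 3.54% of kept cells in young WT, 15.4% in treated WT, 18.5% in miR-146a-/- and 11.99% in DKO, and 1.60%, 11.5%, 11.9% and 7.57% after thinning. DKO minus miR-146a-/- is -6.51 points (-7.58 to -5.44) as sequenced and -4.36 points (-5.28 to -3.46) thinned. For miR-146a-/- minus treated WT the difference is 3.11 points as sequenced (1.957 to 4.27) and 0.418 points thinned (-0.603 to 1.44). With macrophage-gene cells kept, this difference is much smaller and that of treated WT minus young WT is larger. Those values are given in the section on processing.

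**Figure D1:**
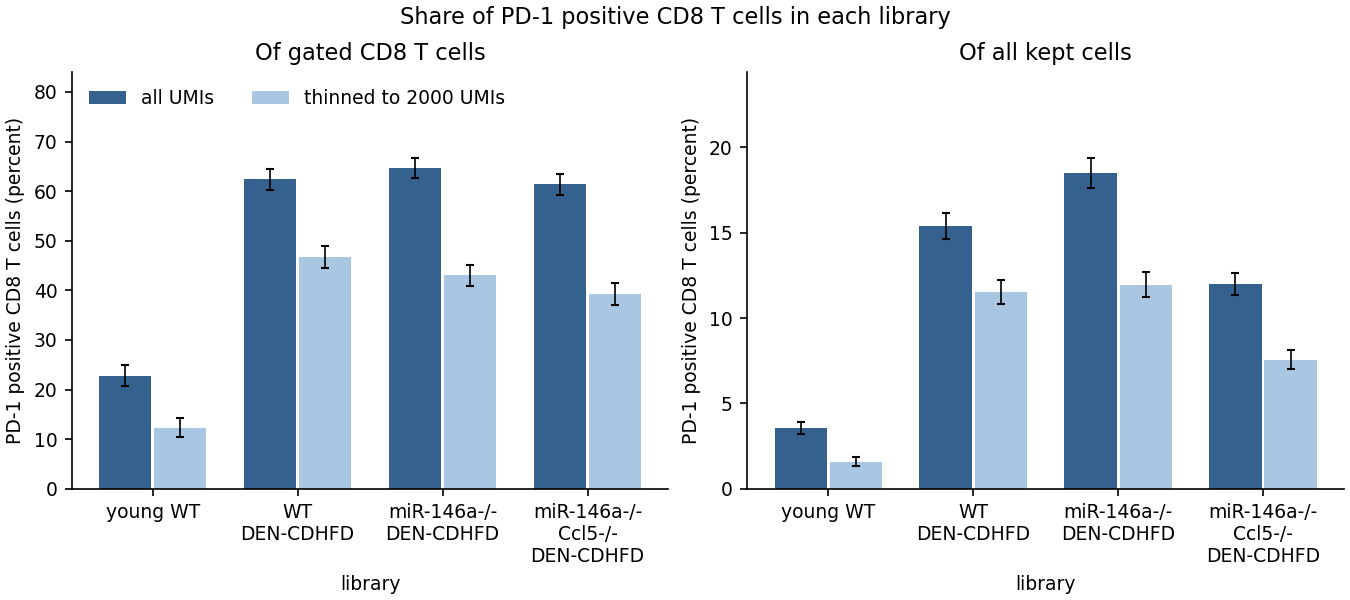
Share of PD-1 positive CD8 T cells (vertical axis, percent) in each library (horizontal axis), of gated CD8 T cells on the left and of all kept cells on the right. Dark bars use all UMIs, light bars use cells thinned to 2000 UMIs, and error bars are exact 95% binomial intervals.

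All 6 marker genes are detected in the PD-1 positive cells of every library, which the rule itself fixes for the CD8 genes and Pdcd1 and leaves free for Lag3, Gzmk and Tigit. Cd8a stands at 804.6, 927.5, 914 and 916.4 CPM in young WT, treated WT, miR-146a-/- and DKO, and Cd8b1 at 1111, 1328, 1251 and 1313 CPM. Transcripts of other lineages were summed as a check on purity. Settings given below leave out mixed droplets, leave out cells with NK markers or keep cells with macrophage genes. Beyond these settings the part of other lineages in the result was not tested. B-cell genes are all present (5 of 5, Cd79a highest) at 237.4, 213.7, 120.2 and 122.6 CPM, against 106.9, 99.8, 30.02 and 129.1 CPM in PD-1 negative non-naive cells. They are thus higher on the PD-1 positive side in 3 of 4 libraries, and 1 of the 5, Ebf1, was also higher in the test described next. Monocyte and macrophage genes (5 of 5, Lyz2 highest except in DKO, where Cd68 is) reach 34.5, 103.6, 59.2 and 61.9 CPM after the exclusion above. NK and innate lymphoid genes (4 of 4, Fcer1g highest, none at 0) sum to 490.4, 307.9, 236.8 and 379.6 CPM. Some of these transcripts come from very few droplets. Neutrophil genes are at 363.9 CPM in miR-146a-/- PD-1 positive cells, where 4045 of their 4197 UMIs are in 2 cells, and at 0.932, 1.06 and 9.29 CPM elsewhere. Red-cell and platelet genes sum to 0, 1.24, 256.5 and 324.7 CPM, with 2936 of 2959 UMIs in 1 miR-146a-/- cell and 2839 of 2866 in 1 DKO cell.

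The only test in this report sets PD-1 positive cells against PD-1 negative CD8 T cells of the same library, with naive-like cells left out of the comparator (502, 374, 437 and 474 cells). UMIs were summed per library and subset, and edgeR quasi-likelihood with the library as a block was run on the 8 sums, which leaves 3 residual degrees of freedom. Pdcd1 defines the subsets and is therefore not a result. Of 10361 tested genes, 608 were higher in PD-1 positive cells (5.87%, 592 of them higher in 4 of 4 libraries) and 570 were lower (5.5%, 564 lower in 4 of 4 libraries), with a median log2 fold change of -0.0066 over all tested genes. With mixed droplets left out, 428 were higher (398 of them as before) and 437 lower (401 as before). List counts below can be set beside these percentages of all tested genes, and they vary with the libraries as the total does. Without young WT the totals are 739 and 709, without treated WT 147 and 133, without miR-146a-/- 218 and 200, and without DKO 153 and 132. The comparator is shallower, at medians of 6084, 6376, 6406 and 5756 UMIs, so the gate and sums were also repeated on cells thinned to 2000 UMIs, which gives 331 higher and 419 lower genes of 9269, with 147 and 169 of them among the genes counted before.

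The genes described next have the largest rises among those that average at least 50 CPM over the libraries in either subset, and their functions differ. Coch, which encodes a secreted extracellular protein best known from the inner ear, rose by a log2 fold change of 3.09 (SE 0.185, edgeR adjusted p 0.000562, in 4 of 4 libraries), with 319 CPM in treated WT PD-1 positive cells against 41.5 in their PD-1 negative counterparts. Spp1, the gene of the secreted protein osteopontin, rose by 3.08 (SE 0.375, edgeR adjusted p 0.00395, in 4 of 4 libraries). Its levels are 2.18, 217.1, 51.1 and 24.9 CPM in PD-1 positive cells against 1.19, 38.5, 1.02 and 0.679 CPM, so young WT is near 0 on both sides. Adgrg1, an adhesion receptor of cytotoxic lymphocytes, rose by 2.19 (SE 0.181, edgeR adjusted p 0.00161, in 4 of 4 libraries). The last of these is spread over libraries more evenly than Coch. Adgrg1 stands at 16.5, 107.4, 116.4 and 67.4 CPM in PD-1 positive cells and at 7.42, 16.5, 23.5 and 17.3 CPM in PD-1 negative cells. Rgs16, a regulator of G-protein signalling, rose by 2.07 (SE 0.169, edgeR adjusted p 0.00156, in 4 of 4 libraries).

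Inhibitory receptors are often measured along with PD-1, and the list used here also holds ectoenzymes. Of its 14 genes, 4 were higher (Lag3, Tigit, Havcr2 and Ctla4) and 3 lower (Cd160, Cd96 and Klrc1), with a median of -0.06 against -0.0066 over all genes. Havcr2, which encodes TIM-3, rose by 1.99 (SE 0.247, edgeR adjusted p 0.00426, in 4 of 4 libraries), but with macrophage-gene cells kept it is at 1.18 and does not pass (edgeR adjusted p 0.0566). Lag3, a receptor for MHC class II, rose by 1.74 (SE 0.25, edgeR adjusted p 0.00678, in 4 of 4 libraries). Ctla4, a competitor of CD28 for its ligands, rose by 1.59 (SE 0.140, edgeR adjusted p 0.00179, in 4 of 4 libraries). Tigit, a receptor for CD155, rose by 1.14 (SE 0.198, edgeR adjusted p 0.0137, in 4 of 4 libraries), and Cd160, which is shared with NK cells, fell by -0.98 (SE 0.231, edgeR adjusted p 0.0346, in 4 of 4 libraries). The balance of this list differs between settings. With gate and sums thinned to 2000 UMIs 7 were higher and 2 lower with a median of 0.43, and against all PD-1 negative cells 9 were higher and 2 lower with a median of 0.76. Higher and lower counts are 6 and 3 without young WT, 4 and 1 without treated WT, 3 and 2 without miR-146a-/-, and 3 and 0 without DKO.

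Per cell, the same receptors show how PD-1 positive cells of the libraries differ. After thinning, a Lag3 UMI is present in 17.9% of young WT, 53.9% of treated WT, 53.4% of miR-146a-/- and 30.1% of DKO PD-1 positive cells, with 6, 18, 7 and 4 cells too shallow to thin. As sequenced these shares are 43.1%, 82.0%, 79.0% and 56.4%, and thinned B cells have 0.739%, 0.155%, 1.12% and 0.890%. Ctla4 is arranged differently. It is found in 18.4%, 57.2%, 17.9% and 23.5% of thinned PD-1 positive cells (37.1%, 82.2%, 39.0% and 43.2% as sequenced), against 1.66%, 3.42%, 1.12% and 1.48% of thinned B cells. Havcr2 is found in 3.91%, 33.1%, 15.5% and 11.1% of thinned PD-1 positive cells (10.2%, 64.2%, 36.3% and 28.3% as sequenced), against 0.185%, 0.621%, 0.224% and 0.297% of thinned B cells. Co-occurrence was counted for the 4 receptors called higher above, so it compares libraries and is no further check of the subset difference. At least 3 of Lag3, Tigit, Havcr2 and Ctla4 occur together in 3.63% of thinned young WT PD-1 positive cells (95% interval 1.95 to 6.13), 41.7% of treated WT (39.0 to 44.5), 13.2% of miR-146a-/- (11.5 to 15.1) and 9.94% of DKO cells (8.29 to 11.8). No B cell of 1083, 644, 447 and 674 has 3, and no value expected from the single shares was computed.

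**Figure D2:**
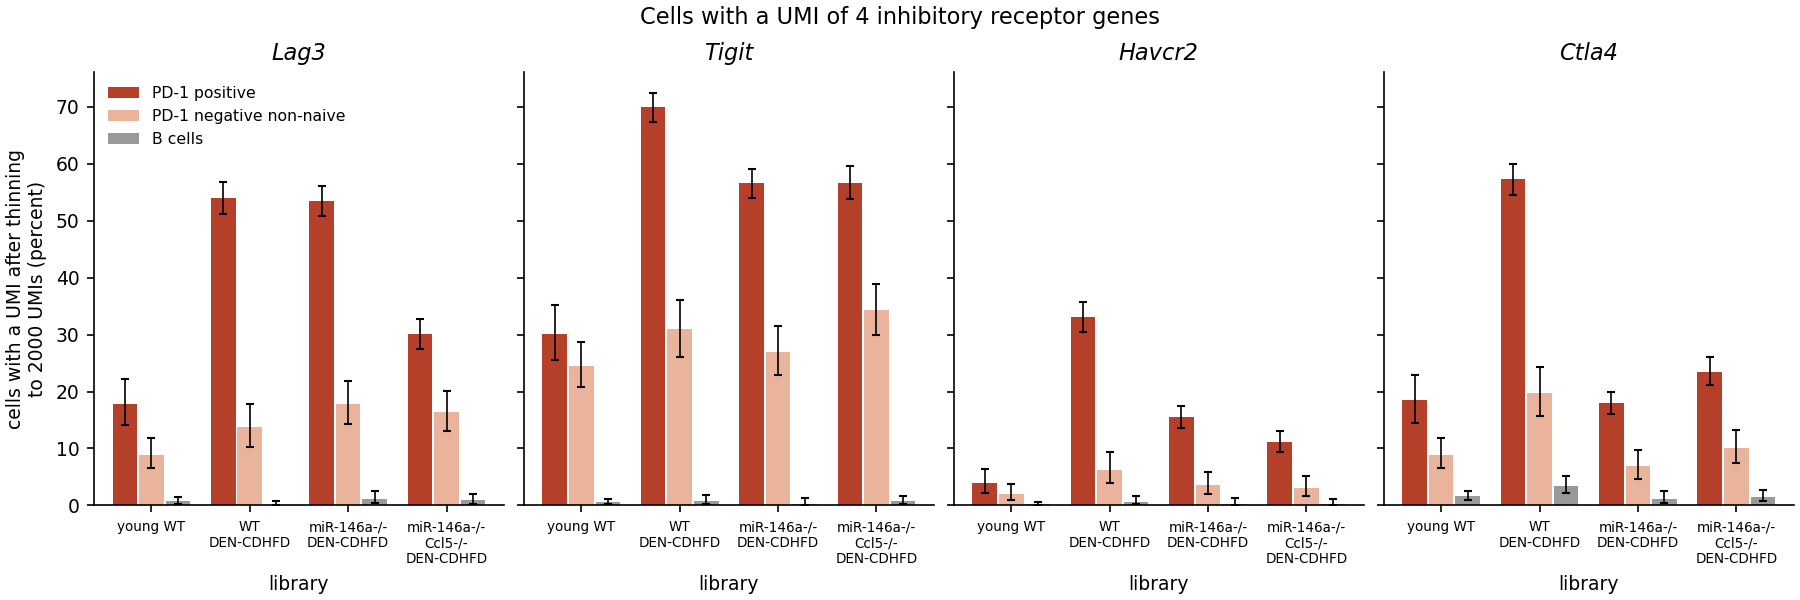
Share of cells with at least 1 UMI of each inhibitory receptor after thinning to 2000 UMIs (vertical axis, percent) in each library (horizontal axis), for PD-1 positive CD8 T cells, PD-1 negative non-naive CD8 T cells and B cells. Bars are shares of cells and error bars are exact 95% binomial intervals.

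Of 14 transcription factors of long-stimulated CD8 T cells 8 were higher (Tox, Tox2, Nr4a2, Batf, Nfatc1, Prdm1, Eomes and Maf), with none lower and a median of 0.63 against -0.0066, in 4 of 4 libraries except Nfatc1 and Maf with 3 of 4. Tox2, a relative of Tox, rose by 2.18 (SE 0.200, edgeR adjusted p 0.00201, in 4 of 4 libraries), from 5.94, 5.98, 11.3 and 16.6 CPM to 21.4, 51.5, 53.8 and 53.0 CPM. Batf, which works with IRF4 downstream of the T-cell receptor, rose by 0.99 (SE 0.183, edgeR adjusted p 0.0162, in 4 of 4 libraries). The count of higher factors is 10 without young WT, 3 without treated WT, 4 without miR-146a-/- and 3 without DKO, and it is 11 with none lower after thinning. Progenitor genes mark the less differentiated, self-renewing cells of the same lineage, and the list used here also holds genes of recirculation. Of 11 tested, 1 was higher (Cxcr5) and 2 lower (Il7r and Ly6c2), with a median of -0.26 against -0.0066. Il7r, the receptor for a survival cytokine, fell by -1.22 (SE 0.299, edgeR adjusted p 0.0393, in 4 of 4 libraries). Without young WT 6 genes of this list were lower, and without any of the other libraries 0 were. With gate and sums thinned, 0 were higher and 9 of 11 lower, with a median of -1.14.

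Cytotoxic effector genes split. Of 13 tested, 3 were higher (Gzmk, Prf1 and Nkg7) and 6 lower (Gzmm, Ctsw, Klrg1, Cx3cr1, Zeb2 and Tbx21), with a median of -0.23 against -0.0066. Gzmk, the granzyme of memory-like and aged CD8 T cells, rose by 0.91 (SE 0.150, edgeR adjusted p 0.0116, in 4 of 4 libraries), with 475.8, 1230, 935.2 and 1034 CPM in PD-1 positive cells against 334.8, 430.2, 518.6 and 629.4 CPM. Gzma did not pass (log2 0.34, edgeR adjusted p 0.473) and neither did Gzmb (-0.23, edgeR adjusted p 0.416). The split does not hold in all settings. With gate and sums thinned to 2000 UMIs 5 were higher and 5 lower with a median of 0.21, and against all PD-1 negative cells 7 were higher and 1 lower with a median of 0.71. Higher and lower counts are 3 and 5 without young WT, 1 and 2 without treated WT, 1 and 3 without miR-146a-/-, and 0 and 1 without DKO. Genes of age-associated T cells, a list that overlaps with those above, were higher in 4 of 5 with a median of 0.62, and in 4, 3, 3 and 2 without the same libraries. This list also holds Ccl5, the gene removed in DKO.

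Among secreted factors, 5 of 12 were higher (Ccl3, Ccl4, Ccl5, Il10 and Csf1) and 3 lower (Xcl1, Tnf and Il2), with a median of 0.30 against -0.0066, in 4 of 4 libraries except Ccl5 and Csf1 with 3 of 4. Ccl5 is the gene removed in DKO, so for it the DKO sums hold only the few UMIs that remain. Il10, an anti-inflammatory cytokine, rose by 3.04 (SE 0.203, edgeR adjusted p 0.00073, in 4 of 4 libraries). Its level in PD-1 positive cells is far highest in treated WT, at 3.42, 142, 15.0 and 11.3 CPM in the 4 libraries, and rests on 11 UMIs in young WT. Ccl3, a chemokine that attracts leukocytes, rose by 1.88 (SE 0.232, edgeR adjusted p 0.00425, in 4 of 4 libraries), with 260.1, 866.5, 816 and 546.5 CPM against 140.4, 161.5, 162.1 and 159 CPM. Ccl4, a related chemokine, rose by 1.34 (SE 0.185, edgeR adjusted p 0.00596, in 4 of 4 libraries). The genes of this list that go in the opposite direction are Xcl1, Tnf and Il2. Il2, the T-cell growth factor, fell by -2.06 (SE 0.351, edgeR adjusted p 0.0129, in 4 of 4 libraries), and Tnf, an inflammatory cytokine, fell by -1.14 (SE 0.119, edgeR adjusted p 0.0026, in 4 of 4 libraries). Ifng did not pass (-0.14, edgeR adjusted p 0.472). Higher and lower counts of the list are 5 and 4 without young WT and 3 and 1 without treated WT, without miR-146a-/- or without DKO, and 6 and 2 of 11 after thinning. With mixed droplets left out they are 5 and 2 of 11 with a median of -0.03.

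NK cells and some CD8 T cells share a set of receptors and adaptors. Of 10 NK-type genes 9 were lower, with a median of -1.43 against -0.0066. Klra6, an inhibitory receptor of the Ly49 family, fell by -3.24 (SE 0.25, edgeR adjusted p 0.00109, in 4 of 4 libraries). Klra7, of the same family, fell by -2.71 (SE 0.237, edgeR adjusted p 0.00179, in 4 of 4 libraries), and Klra1 fell by -2.46 (SE 0.303, edgeR adjusted p 0.00418, in 4 of 4 libraries). Ly49 genes are close paralogs, so reads of 1 member can be counted under another. Fcer1g, an adaptor of activating NK receptors, fell by -1.98 (SE 0.122, edgeR adjusted p 0.000562, in 4 of 4 libraries), from 546.8, 572.2, 409.1 and 801.5 CPM to 189.9, 135.4, 95.2 and 167.3 CPM. Clnk, an adaptor downstream of such receptors, fell by -2.01 (SE 0.144, edgeR adjusted p 0.000921, in 4 of 4 libraries). With 1 library left out, 9, 6, 6 and 5 genes of the list were lower, in the order used above, and 7 of 8 after thinning.

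The test was repeated without cells that hold NK markers. At least 2 UMIs over Ncr1, Klrb1c, Tyrobp and Fcer1g are found in 17.6%, 11.9%, 7.33% and 10.7% of PD-1 positive cells and in 30.5%, 32.4%, 23.1% and 32.5% of PD-1 negative non-naive cells. Without those cells, a setting added after the data were seen, 467 genes were higher and 392 lower of 9623. The filter itself fixes what becomes of its own 4 genes, so they are not read from this setting, and the NK-type list that holds them has 1 of 6 lower. Klra7, a list member outside the filter, then stands at -0.35 and does not pass (edgeR adjusted p 0.805). The list of inhibitory receptors and ectoenzymes has 6 higher and 1 lower of 14 with a median of 0.42, with Havcr2 at 1.85 and Lag3 at 1.73. The transcription factors have 7 higher and 1 lower, and the age-associated genes 2 of 5 higher. Cytotoxic genes have 2 higher and 5 lower of 13 with a median of 0.07. Secreted factors have 4 higher and 2 lower of 11 with a median of 0.06. Immediate-early and stress genes, described below, have 8 of 13 lower with a median of -0.52.

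Residency genes, which hold T cells in tissue, were lower in 5 of 10 (Itga1, Zfp683, Rgs2, P2rx7 and Qpct), with a median of -0.79 against -0.0066. Zfp683, the gene of the residency factor HOBIT, fell by -2.05 (SE 0.382, edgeR adjusted p 0.0163, in 4 of 4 libraries), and P2rx7, a receptor for extracellular ATP and NAD, fell by -1.91 (SE 0.343, edgeR adjusted p 0.0149, in 4 of 4 libraries). Without young WT 6 are lower, without treated WT 2, without miR-146a-/- 3 and without DKO 1, and neither Zfp683 nor P2rx7 passes without any of the last 3. Against all PD-1 negative cells Zfp683 is at -1.16 and P2rx7 at -0.99, and neither passes (edgeR adjusted p 0.0956 and 0.103). The list then has 2 higher and 2 lower with a median of -0.70. Without the NK-marker cells described above, 4 of 10 are lower with a median of -0.45. After thinning the list has 2 higher and 5 lower. Il12rb2, the signalling chain of the interleukin-12 receptor, fell by -2.19 (SE 0.307, edgeR adjusted p 0.00629, in 4 of 4 libraries), and Jaml, an adhesion molecule, fell by -2.10 (SE 0.254, edgeR adjusted p 0.00394, in 4 of 4 libraries). Immediate-early and stress genes, which respond within minutes to stimulation or handling, were lower in 5 of 13 with a median of -0.38. That count is 7 without young WT, 2 without treated WT, 1 without miR-146a-/- and 1 without DKO, and 4 after thinning with 1 gene higher.

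Receptors and adaptors of T-cell activation behave unevenly. Costimulatory genes were higher in 3 of 9 (Cd28, Tnfrsf4 and Cd27) and lower in 2 (Cd226 and Tnfsf8), with a median of 0.32 against -0.0066. Tnfrsf4, which encodes OX40, rose by 2.53 (SE 0.38, edgeR adjusted p 0.00834, in 4 of 4 libraries), and Cd226, the activating counterpart of TIGIT, fell by -1.43 (SE 0.187, edgeR adjusted p 0.00508, in 4 of 4 libraries). T-cell receptor signalling genes were higher in 4 of 15 (Ptpn11, Cblb, Sh2d1a and Sh2d2a) with a median of 0.15. Both lists are sensitive to the libraries used. Costimulatory genes higher are 3, 1, 2 and 2 and signalling genes higher are 7, 2, 1 and 1 without young WT, treated WT, miR-146a-/- and DKO. After thinning 5 costimulatory and 7 signalling genes were higher and 1 of each list lower.

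Cell-cycle genes were higher throughout, 14 of 14 with a median of 1.00 against -0.0066, but this result reverses in another setting. Ube2c, an enzyme of mitotic exit, rose by 1.74 (SE 0.223, edgeR adjusted p 0.00477, in 4 of 4 libraries), and Rrm2, a subunit of ribonucleotide reductase, rose by 1.58 (SE 0.143, edgeR adjusted p 0.00201, in 4 of 4 libraries). Against all PD-1 negative cells Rrm2 is at 0.50 and does not pass (edgeR adjusted p 0.0721). When the gate was applied to cells thinned to 2000 UMIs, 0 of these genes were higher and 6 lower, the median is -0.46, and Ube2c, which is not in the list, is -0.92 (edgeR adjusted p 0.00133). Without DKO 7 of the 14 were higher, and without the others 13, 10 and 10. Against all PD-1 negative cells 5 were higher, and with mixed droplets left out 10. At least 2 UMIs of Mki67 plus Top2a are present in 3.35%, 7.76%, 3.33% and 5.69% of PD-1 positive cells after thinning, which follows the gate on all UMIs (12.1%, 22.2%, 8.36% and 13.7% as sequenced). The PD-1 negative non-naive cells have 2.50%, 4.01%, 2.13% and 1.97% after thinning (6.38%, 9.36%, 5.95% and 4.43% as sequenced), and thinned B cells 1.57%, 3.73%, 0.895% and 1.34%.

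**Figure D3:**
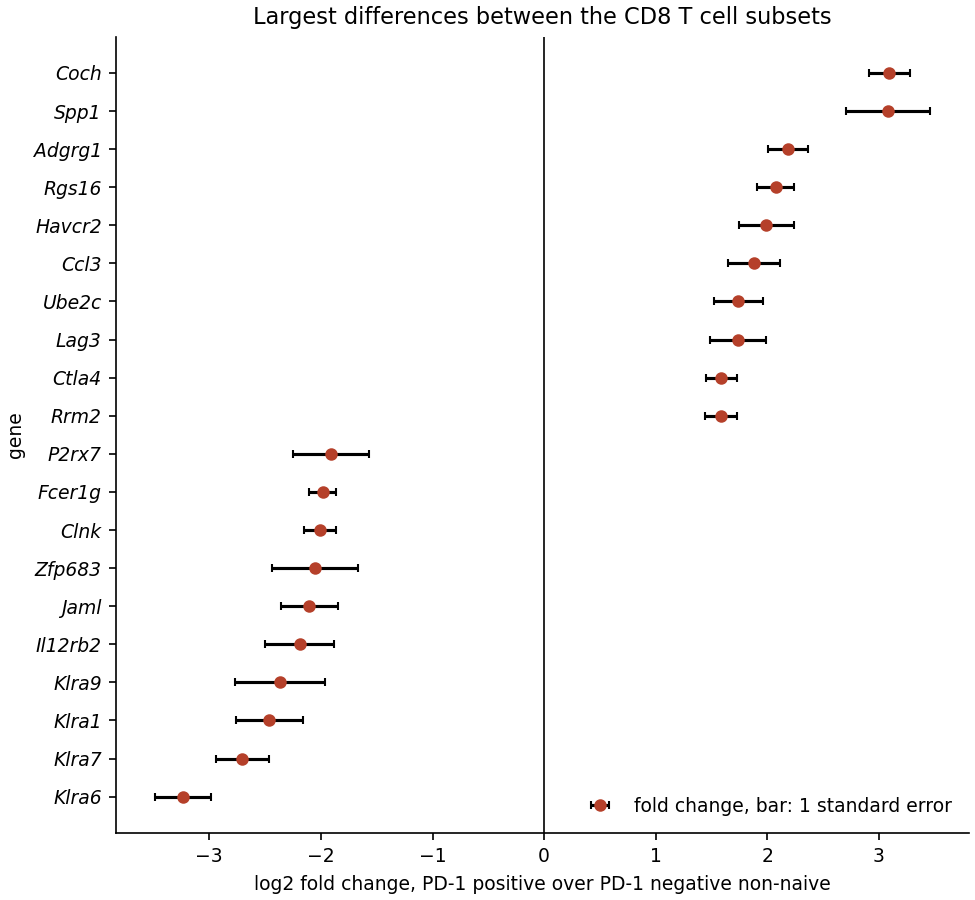
Log2 fold change of named genes in PD-1 positive over PD-1 negative non-naive CD8 T cells (horizontal axis, log2), with genes along the vertical axis. Points are edgeR estimates over 4 libraries and error bars are 1 standard error.

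Within the PD-1 positive cells, cells with more Pdcd1 were set beside cells with less after thinning, so that depth is equal. Cells with at least 3 Pdcd1 UMIs number 14 in young WT, 228 in treated WT, 215 in miR-146a-/- and 141 in DKO, against 125, 383, 471 and 390 with exactly 1. Over 3571 genes the mean log2 ratio of the libraries has a median of 0.046. Ly6c2, a surface protein of memory cells, has the lowest mean at -2.50, with 174.9 CPM at 1 UMI and 39.5 CPM at 3 or more in treated WT, and 207 CPM against 30.2 CPM in miR-146a-/-. Tcf7, the factor of self-renewing CD8 T cells, follows at -1.83, made up of -0.54 in young WT, -3.50 in treated WT, -2.74 in miR-146a-/- and -0.55 in DKO. All of these means rest on few UMIs in some libraries, with 1 UMI of Tcf7 in treated WT and 2 in miR-146a-/- at the high side and 1 of Ly6c2 in young WT. Samd3 is at -1.76, with -2.27, -2.14, -1.44 and -1.20 in the libraries. Tnfrsf4 has 1.77 (3.52, 1.68, 0.89 and 0.98), which outside treated WT rests on at most 6 UMIs a side, and Car2, a carbonic anhydrase, has 1.74, where the young WT value of 4.74 rests on 0 against 1 UMI and treated WT is at -0.12.

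Comparisons between libraries within PD-1 positive cells carry no test, and a gene is counted when its ratio reaches 2-fold in either direction and either library reaches 50 CPM with 20 UMIs or more. Treated WT over young WT has 83 genes higher (2.39%) and 61 lower (1.75%) of 3476, with a median log2 ratio of 0.018. These libraries differ in age, diethylnitrosamine and diet together, which cannot be told apart. Gcg, the proglucagon gene, has 0 UMIs in young WT and 1502 UMIs in treated WT, with a lower bound of 6.86 for the log2 ratio. Coch follows at 7.10 (6.15 to 8.51), Spp1 at 6.54 (5.60 to 7.96) and Il10 at 5.31 (4.53 to 6.38). Several of the highest genes also lead the subset test above, which shares these libraries. Havcr2 is higher by 3.53 (3.16 to 3.95) and Maf, a factor that drives Il10, by 2.56 (2.34 to 2.80). Tcf7 is lower at -2.12 (-2.29 to -1.95), with 199.2 CPM in young WT and 46.0 CPM in treated WT.

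By gene list, treated WT PD-1 positive cells have 6 of 12 inhibitory receptors and ectoenzymes higher (Lag3, Tigit, Havcr2, Ctla4, Lilrb4a and the ectoenzyme gene Entpd1) and 1 lower (Cd160) than young WT, with a median of 0.82 against 0.018 over all genes. Transcription factors have 5 of 13 higher (Tox2, Batf, Ikzf2, Prdm1 and Maf) with a median of 0.67, and cytotoxic genes 4 of 10 higher (Gzma, Gzmb, Gzmk and Id2) with a median of 0.87. Progenitor and recirculation genes lie on the other side. In that list 7 of 10 are lower (Tcf7, Slamf6, Il7r, Id3, S1pr1, Satb1 and Dapl1), with a median of -1.37. Residency genes have 3 of 7 lower (Itga1, Zfp683 and P2rx7) and 1 higher (Rgs1).

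Setting miR-146a-/- beside treated WT gives 17 genes higher (0.502%) and 46 lower (1.36%) of 3385, with a median of -0.027. The 4 highest ratios, of S100a8, S100a9, Hbb-bs and Hba-a1, come from few droplets: 1816 of 1882 S100a8 UMIs are in 2 cells, and 2251 of 2267 Hbb-bs UMIs are in 1 cell. Among genes spread over many cells, Car2 is higher by 1.70 (1.56 to 1.85) and the NK-type receptor gene Cd244a by 1.64. In miR-146a-/-, 1090 of 1659 Car2 UMIs and 673 of 1416 Cd244a UMIs are in cells led by the T-cell receptor segment Trbv13-3. Lower genes include several that were high in treated WT. Il10 stands at -3.24 (-3.48 to -3.02), Coch at -2.67 (-2.80 to -2.54) and Gcg at -8.41, from 132.8 CPM to 0.347 CPM. Ctla4 is at -2.11 (-2.19 to -2.03), with 573.7 CPM in treated WT and 132.7 CPM in miR-146a-/-. Lag3 is nearly level at -0.22, so the receptors do not move together. Inhibitory receptors and ectoenzymes have 2 of 13 higher (Cd160 and Cd244a) and 3 lower (Havcr2, Ctla4 and Lilrb4a) with a median of -0.20. The transcription factors have 3 of 12 lower (Nr4a1, Nr4a3 and Maf) with a median of -0.42. Fos, an immediate-early gene, is at -2.68, with 233.9 CPM against 36.5 CPM.

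DKO over miR-146a-/- has the fewest genes, 9 higher (0.269%) and 16 lower (0.478%) of 3346, with a median of 0.028. Ccl5 leads the lower genes as given above. Lag3 is at -1.36 (-1.44 to -1.28), from 483.8 CPM to 188.6 CPM, and is the only 1 of 13 inhibitory receptors and ectoenzymes to reach 2-fold. Tnfrsf9, which encodes the costimulatory receptor 4-1BB, is at -1.47, and Gzma is at -1.21. Several of these genes are unevenly spread over the cells of miR-146a-/-. With the most frequent receptor segment of each library left out, Lag3 is at -0.78 and Tnfrsf9 at -0.85, both under 2-fold, and Gzma is at 1942 CPM in miR-146a-/- against 1827 CPM in DKO. Stmn1, a microtubule regulator of dividing cells, is higher by 1.02 (0.70 in that setting), and cell-cycle genes have 1 of 13 higher with a median of 0.66. Camk2b, a calcium-dependent kinase, is higher by 1.92, from 25.5 CPM to 96.3 CPM.

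miR-146a recognises messages through bases 2 to 8, written in capitals in its sequence from RefSeq (build GRCm38.p6, chromosome 11, minus strand). The matching site AGTTCTC occurs in the 3-prime UTR of 2251 of 20987 genes (10.7%), where UTR sequences are from GENCODE vM21 (GRCm38). Known targets differ in how many sites they hold, with 4 in Traf6, 2 in Irak1, 2 in Irak2 and 0 in Relb, and capitals below mark the site.
mmu-miR-146a-5p: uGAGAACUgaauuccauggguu
Traf6 base 460: ctctggtgttgAGTTCTCatttagttgac
Traf6 base 524: tggaaggcttaAGTTCTCaagtactccct
Traf6 base 1336: ctttggagtctAGTTCTCagggagcccta
Traf6 base 3860: tttgctactgcAGTTCTCaaacatggaag
Irak1 base 40: tcagaggtcaaAGTTCTCatgcttggaag
Irak1 base 56: tcatgcttggaAGTTCTCatagtgtgcaa
Irak2 base 353: ccaaacctcttAGTTCTCcacaacggaca
Irak2 base 486: gtgtctccgcaAGTTCTCaagttcaggac
These adaptors and kinases carry signals from innate receptors, and their messages are present in PD-1 positive cells at modest levels. Irak2 is at 45.7, 54.4, 91.8 and 53.7 CPM, and miR-146a-/- over treated WT is 0.76 (0.61 to 0.90). In miR-146a-/- it is uneven, with 160.6 CPM in cells led by the receptor segment Trbv13-3, 67.3 CPM in those led by Trbv29 and 64.9 CPM in the others. Irak1 is at 54.1, 61.0, 80.6 and 59.9 CPM, with 0.40 (0.26 to 0.55) for the same comparison. Traf6, with the most sites, has -0.10 (-0.30 to 0.10). In the subset test Relb, an NF-kB subunit, fell by -0.29 (SE 0.066, edgeR adjusted p 0.0296, in 4 of 4 libraries), and it does not pass without treated WT, without miR-146a-/- or without DKO.

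T-cell receptor segments are inherited by all descendants of a T cell, so a frequent segment is 1 mark of clonal growth, although unrelated cells can also share it. The 5-prime chemistry reads into V segments, and a leading Trbv segment with at least 2 UMIs was found in 94.5% of young WT, 95.6% of treated WT, 97.7% of miR-146a-/- and 97.0% of DKO PD-1 positive cells, against 3 of 1092, 2 of 654, 0 of 447 (upper limit 0.671%) and 1 of 678 B cells. Each library has another frequent segment. Trbv14 leads in 86 of 344 young WT cells (25.0%, 20.5 to 29.9), and Trbv17 in 415 of 1224 treated WT cells (33.9%, 31.3 to 36.6). Trbv13-3 leads in 435 of 1413 miR-146a-/- cells (30.8%, 28.4 to 33.3), and Trbv16 in 378 of 1145 DKO cells (33.0%, 30.3 to 35.8). PD-1 negative non-naive cells of the same libraries have these segments at 13.2%, 6.42%, 10.2% and 19.6%. The segments were chosen as the most frequent in PD-1 positive cells, which favours a lower use elsewhere, so no conclusion is drawn. The most frequent segment of PD-1 negative non-naive cells is the same in young WT and DKO. In treated WT it is Trbv13-3 (11.8% against 0.654% of PD-1 positive cells), and in miR-146a-/- it is Trbv16 (10.45% against 4.53%). The first coding bases from GENCODE vM21 (GRCm38, chromosome 6, plus strand) are given with the start codon in capitals.
Trbv14: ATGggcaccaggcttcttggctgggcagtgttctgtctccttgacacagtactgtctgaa
Trbv17: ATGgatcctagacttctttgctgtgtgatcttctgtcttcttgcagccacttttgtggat
Trbv13-3: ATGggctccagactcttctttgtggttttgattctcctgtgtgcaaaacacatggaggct
Trbv16: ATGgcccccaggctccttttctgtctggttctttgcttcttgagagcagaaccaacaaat
Of all 25-base words in these segments, 19.6% of Trbv13-3 words recur in another V segment, Trbv13-2 being closest, and 0% of the words of the other 3 do, so the Trbv13-3 count is the least certain.

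**Figure D4:**
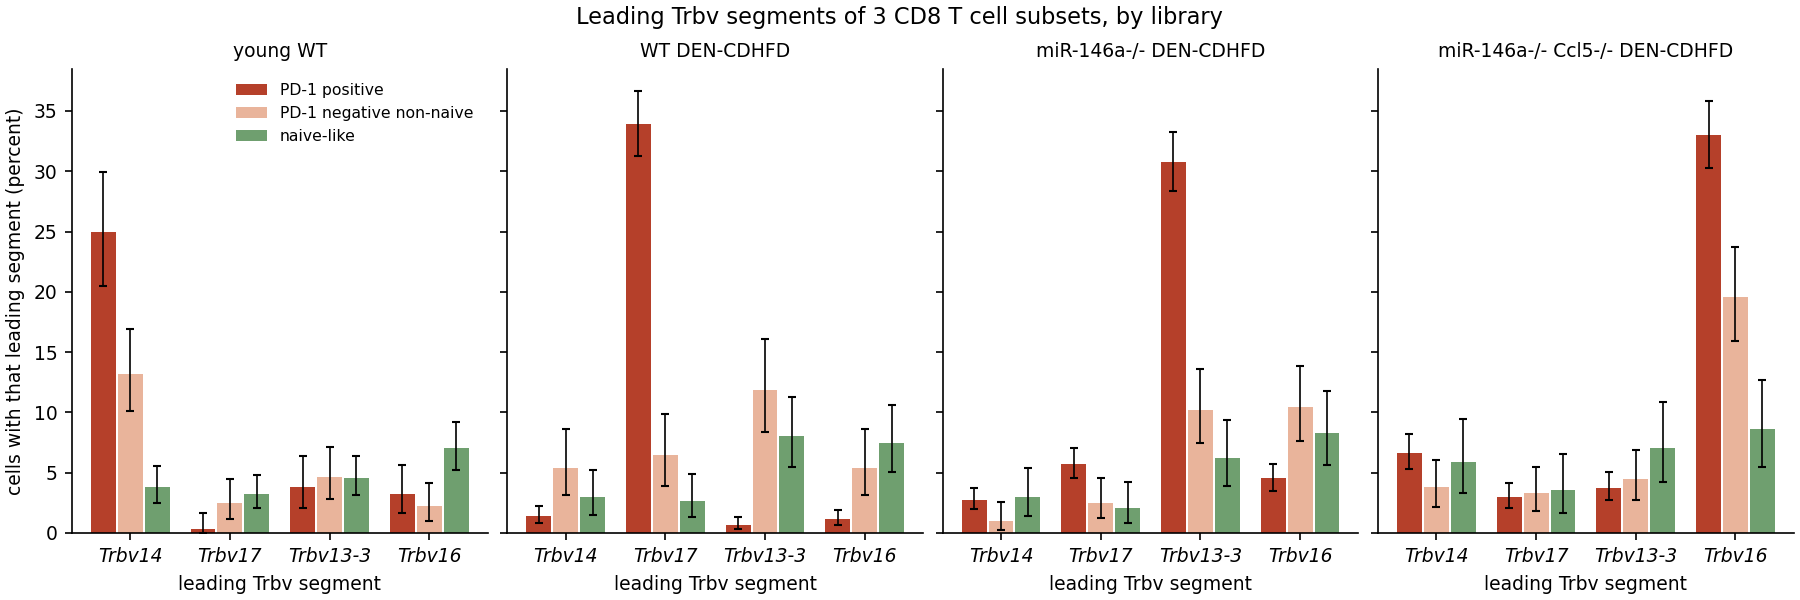
Share of cells led by each of 4 Trbv segments (vertical axis, percent of cells with a leading segment; horizontal axis, segment) in PD-1 positive, PD-1 negative non-naive and naive-like CD8 T cells of each library. Bars are shares of cells and error bars are exact 95% binomial intervals.

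The chance that 2 cells drawn at random share their leading Trbv segment sums this up. In PD-1 positive cells it is 10.8% (SE 0.939) in young WT, 20.04% (SE 0.716) in treated WT, 13.8% (SE 0.624) in miR-146a-/- and 14.0% (SE 0.792) in DKO. PD-1 negative non-naive cells have 7.25%, 6.48%, 7.17% and 7.88%, and naive-like cells 6.12%, 6.42%, 6.22% and 6.01%. By Trav and Trbv pair, in cells with both chains, the chance is 2.996% in young WT, 23.1% in treated WT, 1.61% in miR-146a-/- and 4.64% in DKO. It is higher than by Trbv alone only in treated WT and lower in the other libraries. The treated WT pair value rests on 833 cells with both chains, the Trbv value on 1224 cells with a leading Trbv segment. Within the same cells a shared pair cannot be more frequent than a shared Trbv segment. The higher pair value thus comes from the different cells and is not read as more sharing. Many Trav segments have near-identical copies. Trav8d-2 with Trbv17 is found in 359 of 833 treated WT cells with both chains (43.1%), Trav16 with Trbv1 in 166 (19.9%), Trav7-3 with Trbv16 in 154 of 870 DKO cells (17.7%), and Trav12-2 with Trbv14 in 31 of 208 young WT cells (14.9%). In miR-146a-/- the most frequent pair, Trav5-4 with Trbv17, reaches 49 of 811 cells (6.04%). The most frequent pair of PD-1 negative non-naive cells holds 7.03%, 14.5%, 4.58% and 5.66% in young WT, treated WT, miR-146a-/- and DKO. In naive-like cells it holds 1.33%, 1.99%, 6.64% and 1.65%, so in miR-146a-/- the naive-like value is above the PD-1 positive one. Words of 25 bases shared with another segment are 51.9% for Trav8d-2, 82.5% for Trav7-3, 50.5% for Trav12-2 and 72.1% for Trav5-4, so these alpha names stand for groups of paralogs. A further Trbv segment with at least 2 UMIs is found in 38.2%, 30.2%, 38.7% and 20.4% of PD-1 positive cells, 23.5%, 17.4%, 20.1% and 18.1% of PD-1 negative non-naive cells and 29.0%, 21.1%, 22.3% and 20.7% of naive-like cells. Such cells can be doublets or can carry 2 beta-chain transcripts, which the counts do not tell apart.

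Cells of a frequent segment carry a large part of the UMIs of several genes. In treated WT, 1430 of 1502 Gcg UMIs, 2054 of 2455 Spp1 UMIs and 855 of 1232 Tnfrsf4 UMIs are in PD-1 positive cells led by Trbv1, which number 300. Gcg stands at 501.8 CPM in those cells and at 2.28 CPM in the Trbv17 cells of the same library. Gzma is arranged the other way, with 590.6 CPM in Trbv1 cells and 2962 CPM in Trbv17 cells. In miR-146a-/-, the Trbv13-3 cells differ from the rest of the PD-1 positive cells in Gzma (6976 against 1942 CPM), Car2 (345.9 against 67.9 CPM), Lag3 (875.9 against 339.7 CPM) and Mki67 (26.0 against 96.0 CPM). These genes overlap with those that separate DKO from miR-146a-/-. With the most frequent segment of each library left out, a setting added after the data were seen, DKO over miR-146a-/- has 11 genes at 2-fold in place of 25, of which 7 are shared. The other comparisons have 137 genes (119 of the 144 reported) for treated WT over young WT and 56 (49 of the 63 reported) for miR-146a-/- over treated WT. In treated WT this leaves out Trbv17 cells, so it does not bear on the Trbv1 cells. The frequent cells of the remaining libraries have traits of their own. In DKO the Trbv16 cells have Coch at 128.7 CPM against 25.2 CPM in the others and Gzma at 609.6 CPM against 1827 CPM, and in young WT the Trbv14 cells have the NK receptor gene Klre1 at 534.8 CPM against 122.4 CPM and Ctla4 at 22.3 CPM against 169.3 CPM.

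**Figure D5:**
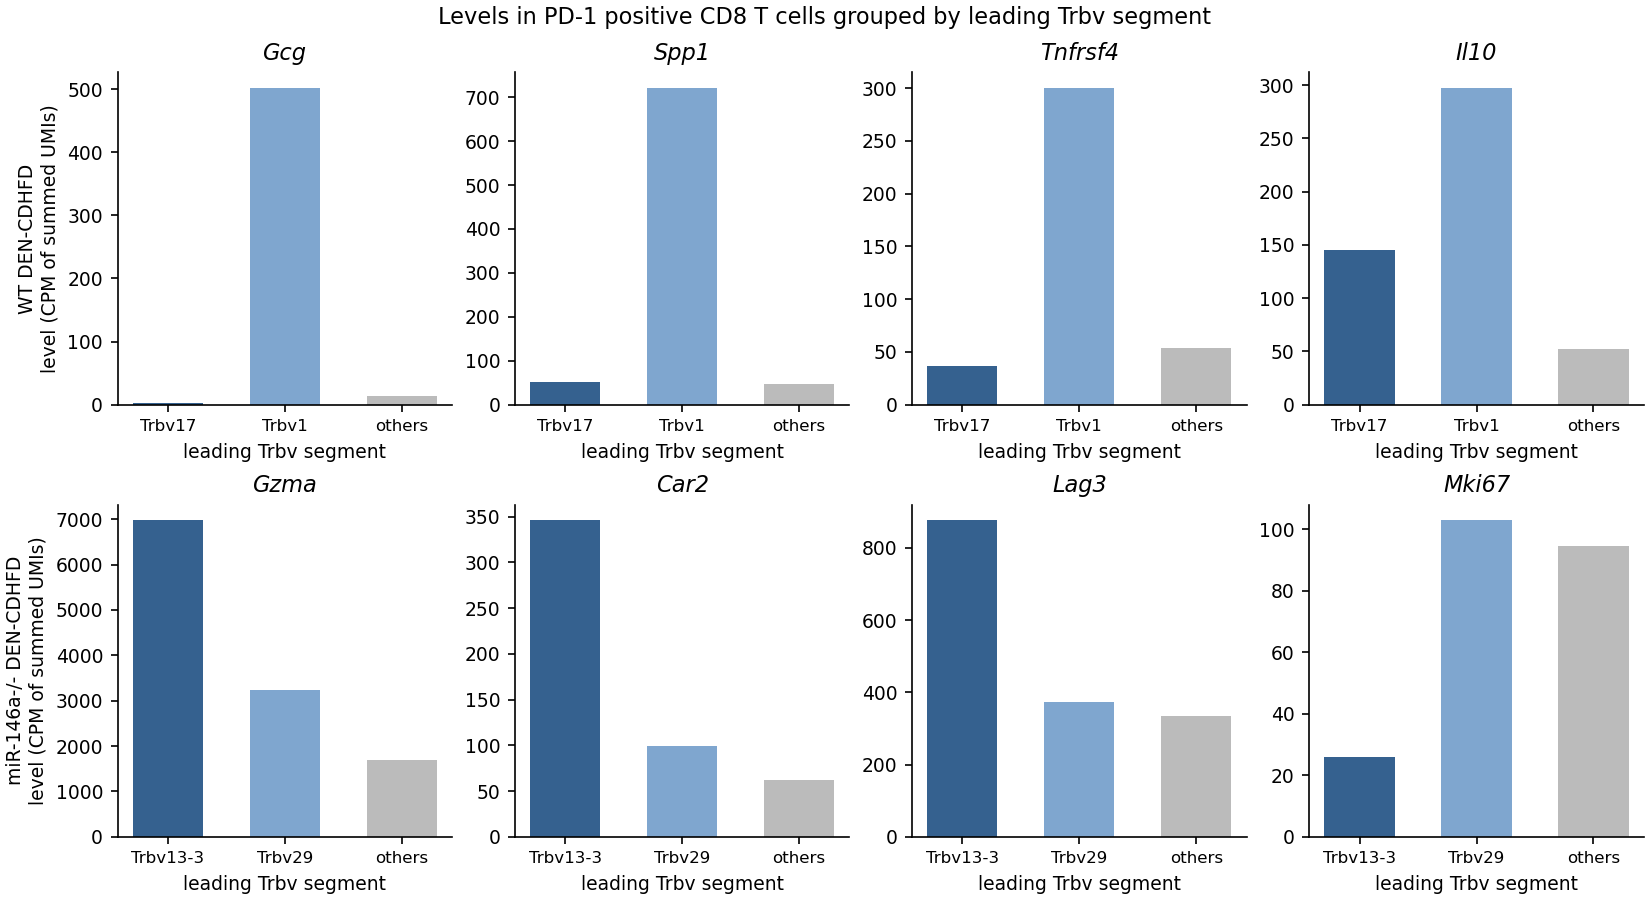
Level of named genes (vertical axis, CPM) in PD-1 positive CD8 T cells grouped by leading Trbv segment (horizontal axis), treated WT in the top panels and miR-146a-/- in the bottom panels. Bars are summed levels of all cells of a group and there are no error bars.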

How the data were processed

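The authors deposited UMI counts per gene and cell barcode (Cell Ranger 7.0.1, mm10, by the series record), which were used unchanged; the paper names another version, and versions differ in counting intronic reads by default; 32285 genes are listed. Analyses ran in python 3.11.15 and R 4.3.3 with edgeR 4.0.16 and DESeq2 1.42.0. Members and gene lists were chosen with earlier results of these data known. Named genes are among the 10 largest rises and falls of each comparison at 50 CPM or more (in the subset test the mean over libraries of either subset), in the subset test with the same direction in 4 of 4 libraries; antigen receptor, ribosomal and mitochondrial genes are left out of library comparisons. Other named genes come from the lists, or for segments were picked after their values were seen. Levels are UMIs of a summed subset scaled by its UMI total (CPM). Intervals treat UMIs or cells as independent counts and hold no variation between mice. Median depth differs between libraries, so shares were repeated on cells thinned to 2000 and to 1000 UMIs. Alternatives tried were other Pdcd1 thresholds, other comparators, other normalisation, DESeq2, removal of mixed droplets, each library left out, frequent segments or NK-marker cells left out, and macrophage-gene cells kept. The counts of some gene lists are not reported here.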

Additional observations from a re-analysis of the deposited data

How the results depend on the processing

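The cause was not tested for any value below. PD-1 positive share of gated CD8 T cells, treated WT minus young WT (39.6 points): 43.2 with at least 2 Pdcd1 UMIs, 34.5 thinned to 2000 UMIs and 27.7 thinned to 1000. For miR-146a-/- minus treated WT (2.26 points) the sign reversed: -2.76 with at least 2 Pdcd1 UMIs, -3.68 thinned to 2000 and -4.36 thinned to 1000. For DKO minus miR-146a-/- (-3.31 points): -2.73 thinned to 1000, with an interval that holds 0.

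Share of all kept cells, treated WT minus young WT (11.8 points): 8.86 without mixed droplets, 19.1 with macrophage-gene cells kept, 9.92 thinned to 2000 and 5.12 thinned to 1000. For miR-146a-/- minus treated WT (3.11 points): 1.3 with at least 2 Pdcd1 UMIs, 4.34 without mixed droplets, 0.341 with macrophage-gene cells kept, 0.418 thinned to 2000, and reversed to -0.173 thinned to 1000. For DKO minus miR-146a-/- (-6.51 points): -4.36 thinned to 2000 and -1.79 thinned to 1000.

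Genes at 2-fold between libraries: treated WT over young WT 144, with 415 at a floor of 10 CPM in place of 50 and 252 with the thinned gate. miR-146a-/- over treated WT 63, with 216 at that floor. DKO over miR-146a-/- 25, with 110 at that floor, 38 without mixed droplets and 11 without the most frequent segment. Of the named ratios 280 stayed, 133 moved and 7 reversed. Reversed were Jchain in treated WT over young WT (0.57 without mixed droplets), Id3 in the same comparison (0.51 with macrophage-gene cells kept), and in miR-146a-/- over treated WT Hbb-bs (-3.40), Hba-a1 (-7.46) and Jchain (-0.11) with the thinned gate and Jchain (-1.04) without mixed droplets. Cd200r2 in DKO over miR-146a-/- is 0.004 without the most frequent segment.

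Subset test, 608 higher and 570 lower: DESeq2 411 and 355, all PD-1 negative cells as comparator 1446 and 1590, thinned 331 and 419, without NK-marker cells 467 and 392. With 1 library left out the counts range from 147 to 739 higher and from 132 to 709 lower. Thinned, Ube2c reversed to -0.92 and Rrm2 to -0.39. No longer passing: with all PD-1 negative cells Rrm2 0.50, Zfp683 -1.16 and P2rx7 -0.99; with treated WT, miR-146a-/- or DKO left out, at about the same fold, Klra9 -2.51 to -1.97, Zfp683 -1.95 to -1.77 and P2rx7 -1.77 to -1.66; with macrophage-gene cells kept Havcr2 1.18; without NK-marker cells Klra7 -0.35, Klra9 -1.71 and Fcer1g -0.70, the last being a filter gene. Macrophage-gene cells kept, the most frequent segment left out and NK-marker cells left out were alternatives chosen after seeing the data.

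Repeat percent of PD-1 positive cells by Trav and Trbv pair in place of Trbv, in the smaller set of cells with both chains: 2.996 in young WT, 23.1 in treated WT, 1.61 in miR-146a-/- and 4.64 in DKO.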

Other observations

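With 1 library per group, animal variation is not separated from group. Young WT differs from treated WT in age, diethylnitrosamine and diet at once, so no difference between them can be assigned to any of these. The number of mice per library is not stated. Cells were sorted on CD45 and no protein level of PD-1 was measured, so the rule sees transcripts only. The paired test has 3 residual degrees of freedom. V segments were read from gene counts without assembled receptor sequences, so clones are not resolved below the segment level. miR-146a itself is not counted. Nearly all Hbb-bs UMIs are in 1 cell of a library and the 1502 Gcg UMIs of treated WT in 50 cells. Doublets were removed only through lineage genes.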
